A study of Sus scrofa with 12 samples.

Results

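The genes described here are 6 genes of the response to low oxygen and of fuel sensing in porcine skeletal muscle after slaughter: HIF1A, its targets VEGFA, ADM, SLC2A1 and VLDLR, and the thioredoxin inhibitor gene TXNIP. They were found as all probe sets whose single gene symbol in the platform annotation is one of these names, which gave 13 of the 24123 probe sets in the table, for 6 of the 6765 genes that have such a single-symbol probe set. HIF1A and VEGFA had 4 probe sets each, VLDLR had 2, and TXNIP, ADM and SLC2A1 had 1 each. The probe set of a gene with the highest average level on the 12 arrays is given first and called the brightest.

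Portions of the semimembranosus, a thigh muscle, were taken from 3 female commercial hybrid pigs of about 160 kg, which were raised on a single farm and stunned with CO2 at 87%. Each pig gave 1 portion of 3 to 5 g from the left leg at 20 min, 2 h, 6 h and 24 h after death, while the carcass was chilled towards 4 °C, so 12 arrays form 4 times with 3 pigs each. All 4 groups are therefore dead tissue, and the 20 min samples are the earliest and not a living control. Values are log2 intensities after RMA, in which 1 unit is a 2-fold difference; they allow a probe set to be compared between arrays, but not the levels of different probe sets with each other. The array medians lay between 5.89 and 5.93. RMA normalises by quantiles, which makes the medians nearly equal, so a change of total RNA cannot be read from them. The pairwise r between arrays over the probe sets was 0.986 to 0.997. The sample labels name the tissue as skeletal muscle. The mean of 9 skeletal muscle fibre markers lay between 14.18 and 14.23 on every array. In whole muscle, fewer cells of a type and less RNA per cell cannot be told apart.

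HIF1A encodes the oxygen-regulated subunit of hypoxia-inducible factor 1. In cells with oxygen the protein is hydroxylated and degraded; without oxygen it is stable, pairs with ARNT and switches on genes for vessel growth, glucose uptake and glycolysis. VEGFA encodes the main growth factor of blood vessels, ADM the vessel-widening peptide adrenomedullin, SLC2A1 the basal glucose transporter GLUT1 and VLDLR a receptor for triglyceride-rich lipoproteins. TXNIP encodes a protein that binds thioredoxin and restrains glucose uptake, and its transcript follows the glucose supply of the cell in mammalian cells. An array measures transcripts only, so the protein level of HIF1A was not measured.

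None of the 13 probe sets passed a test between times after adjustment over all probe sets. Of the 6 brightest probe sets, VEGFA varied least, with time means between 11.45 and 11.52, and ADM most, with time means between 6.68 and 6.92. In the linear model of all 12 arrays with pig as a block (limma, Benjamini-Hochberg over 23999 probe sets), 12 of the 13 probe sets had a 95% interval of the change at 24 h against 20 min that stayed inside 2-fold. For the brightest probe sets these intervals reached from 0.754-fold to 1.36-fold. The moderated F test over the 4 times called 0 of 13, with a smallest adjusted p = 0.539, where 0.00417% of all probe sets were called. At an unadjusted p under 0.05 the F test had 1 of 13, the HIF1A probe set Ssc.390.2.S1_at, against 8.22% of all probe sets.

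**Figure D1:**
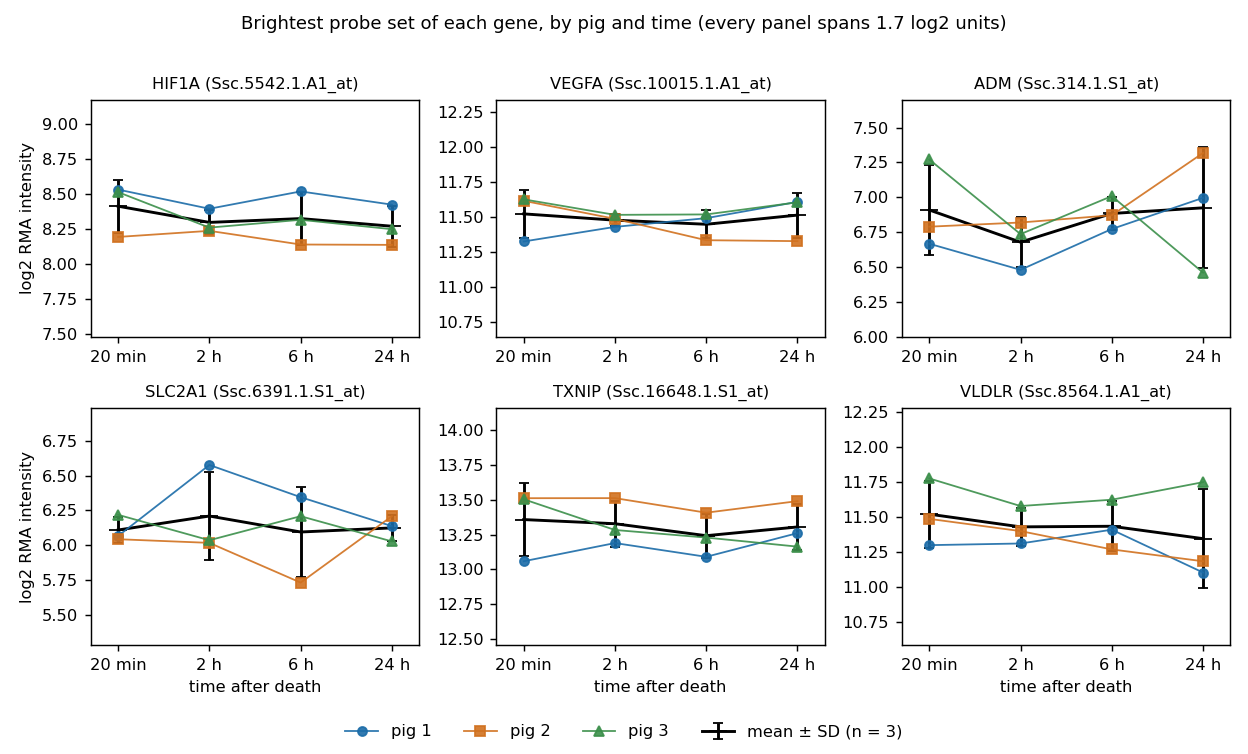
Log2 RMA intensity (y axis) of the brightest probe set of each gene at 20 min, 2 h, 6 h and 24 h after death (x axis), with a line for each of the 3 pigs and the mean ± SD in black. Every panel spans the same number of log2 units. The pigs keep their order in HIF1A at all 4 times, pig 2 is highest in TXNIP and pig 3 in VLDLR at all 4 times, and the 24 h values of ADM lie between 6.46 and 7.32.

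The brightest HIF1A probe set, Ssc.5542.1.A1_at, was the 1 of its 4 that was not among the dimmest 40% of the array. In pigs 1, 2 and 3 its log2 level was 8.53, 8.19 and 8.51 at 20 min, 8.39, 8.24 and 8.26 at 2 h, 8.52, 8.14 and 8.31 at 6 h, and 8.42, 8.14 and 8.25 at 24 h. The 4 times overlapped, and the order of the pigs was the same at each of them, with pig 1 highest and pig 2 lowest. The time means ordered from 24 h (8.27) through 2 h (8.30) and 6 h (8.32) to 20 min (8.41). No 2 neighbours in that order differed by more than 0.0887, which is close to the standard error of a paired change in the model, 0.0822. At 24 h against 20 min the level was lower in 3 of 3 pigs, by a mean log2 change of -0.14 ± 0.11 (SD, n = 3), which did not pass (limma adjusted p = 0.470). The mean changes at 2 h and 6 h were -0.12 ± 0.15 and -0.09 ± 0.10, with adjusted p = 0.715 and 0.763.

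The other 3 HIF1A probe sets were all among the dimmest 40%. Ssc.390.2.S1_at read 4.44, 3.94 and 4.29 at 20 min, 4.29, 3.47 and 4.28 at 2 h, 4.73, 4.04 and 4.43 at 6 h, and 3.96, 3.80 and 3.98 at 24 h in pigs 1, 2 and 3. Its 24 h values lay below all 6 h values and below those of the same pig at 20 min. The change at 24 h against 6 h was -0.49 ± 0.27 (SD, n = 3), lower in 3 of 3 pigs. Its limma p was 0.00179 unadjusted and 0.569 adjusted, and 3.8% of all probe sets were lower at an unadjusted p under 0.05 in that comparison. At 24 h against 20 min the change was -0.31 ± 0.17, with an unadjusted limma p of 0.0259 and an adjusted p = 0.327. This set was higher at 6 h than at 2 h in 3 of 3 pigs (0.39 ± 0.21, limma adjusted p = 1.00), where 8.69% of all probe sets were higher in 3 of 3.

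The remaining HIF1A sets moved by less. Ssc.390.2.A1_at ranged from 3.302 to 3.873 and had changes of -0.17 ± 0.03 at 6 h and -0.12 ± 0.16 at 24 h against 20 min. Ssc.390.1.A1_at ranged from 3.20 to 3.68 and changed in the opposite direction, by 0.14 ± 0.14 at 24 h. At 6 h, 2 of the 4 HIF1A probe sets had a higher mean than at 20 min and 2 a lower one; at 24 h, 3 were lower and 1 higher. The differences between the change of a dimmer set and that of the brightest set at 24 h were -0.17 ± 0.18, 0.02 ± 0.27 and 0.29 ± 0.04 (SD, n = 3). An exact sign-flip permutation test over 3 pigs cannot go below p = 0.25, two-sided, so it cannot settle these differences; that of Ssc.390.1.A1_at was positive in 3 of 3 pigs. Over the 12 arrays the dimmer sets correlated with the brightest by r = 0.670 for Ssc.390.2.S1_at, which mostly shared its order of pigs, and by 0.154 and 0.204 for the others. After taking out each pig's mean, r lay between 0.129 and 0.258; both are descriptions, because arrays of 1 pig share their animal.

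**Figure D2:**
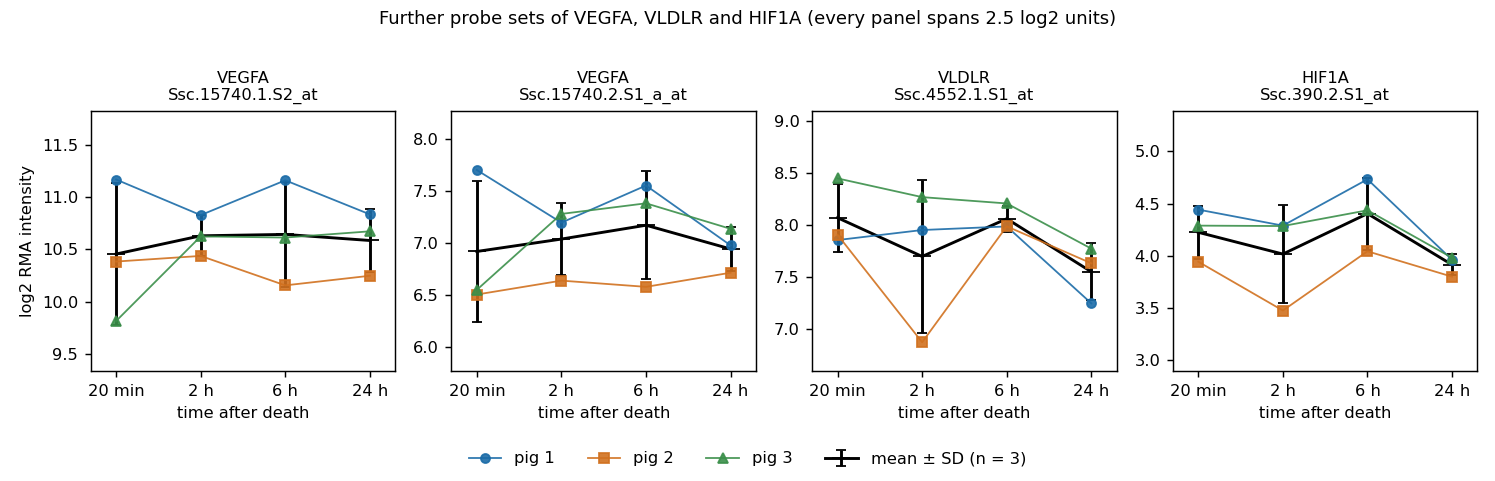
Log2 RMA intensity (y axis) of further probe sets of VEGFA, VLDLR and HIF1A at 20 min, 2 h, 6 h and 24 h (x axis), by pig and as mean ± SD. Both VEGFA sets show pig 1 highest at 20 min, with pig 3 lowest in Ssc.15740.1.S2_at (9.81) and pig 2 lowest in Ssc.15740.2.S1_a_at (6.51), and the VLDLR set shows the 24 h values of all 3 pigs below every 20 min value, with pig 2 lowest at 2 h (6.87).

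The VEGFA probe sets did not run in parallel. The brightest, Ssc.10015.1.A1_at, read 11.32, 11.62 and 11.63 at 20 min, 11.43, 11.49 and 11.52 at 2 h, 11.49, 11.33 and 11.52 at 6 h, and 11.61, 11.33 and 11.60 at 24 h in pigs 1, 2 and 3. All 12 values lay within 0.30 log2 units. Neighbouring time means were at most 0.0364 apart, less than the standard error of a paired change in the model, 0.103. The change at 24 h against 20 min was -0.01 ± 0.29 (SD, n = 3; limma adjusted p = 0.978), with a 95% interval from -0.23 to 0.22.

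A pair of other VEGFA sets varied widely between pigs. Ssc.15740.1.S2_at read 11.17, 10.38 and 9.81 at 20 min, 10.83, 10.44 and 10.63 at 2 h, 11.16, 10.16 and 10.61 at 6 h, and 10.84, 10.25 and 10.67 at 24 h in pigs 1, 2 and 3. Pig 1 was highest at all 4 times, and the 20 min array of pig 3 was the lowest of the 12. Its change at 24 h against 20 min was -0.33, -0.14 and 0.86 in pigs 1, 2 and 3, a mean of 0.13 ± 0.64 (limma adjusted p = 0.802). Without the 20 min array of pig 3 the mean change was -0.20 (adjusted p = 0.705), and without pig 3 altogether it was -0.24 (adjusted p = 0.751).

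Ssc.15740.2.S1_a_at followed that set, with r = 0.863 over the 12 arrays and r = 0.849 after taking out each pig's mean. Its values were 7.70, 6.51 and 6.55 at 20 min, 7.20, 6.64 and 7.28 at 2 h, 7.55, 6.58 and 7.38 at 6 h, and 6.98, 6.72 and 7.14 at 24 h. At 24 h against 20 min it was lower in pig 1 (-0.72) and higher in pigs 2 and 3 (0.21 and 0.59). Against the brightest VEGFA set this pair had r = -0.151 and -0.594 within pigs. The fourth set, Ssc.15740.2.A1_at, was among the dimmest 40% and ranged from 3.94 to 4.26. Its 6 h values lay above all 20 min values, by 0.08 ± 0.06 (limma adjusted p = 0.823), in a comparison where 4.24% of all probe sets had non-overlapping higher values. Which of the VEGFA probe sets follows the transcript best cannot be settled from these values.

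Pig 3, whose change at 24 h was highest in the wide VEGFA sets and lowest in ADM, also had the lowest change in 4 lists of cell markers. At 24 h against 20 min, the mean change of 6 macrophage markers was -0.45, -0.49 and -1.75 in pigs 1, 2 and 3, and that of 5 fibroblast markers 0.10, -0.03 and -0.44. For 10 endothelial markers it was -0.00484, 0.32 and -0.15, and for 4 adipocyte markers -0.09, 0.04 and -0.57. For 9 skeletal muscle fibre markers, where pig 3 was not lowest, it was 0.016, 0.034 and 0.019. These changes of pig 3 share its 20 min array, which had the lowest mean r with the other arrays, 0.989. Without that array the median change of the list was -0.60 for macrophage (-1.10 with it) and -0.04 for fibroblast markers (-0.19). It was 0.003 for adipocyte (-0.05) and 0.05 for endothelial markers (0.02). Over the list, 5 of 6 macrophage markers were lower at 24 h in 3 of 3 pigs, against 16.7% of all probe sets. The other 1 was higher in 3 of 3 pigs, against 17.8% of all probe sets. Of all 10 probe sets of these genes, 3 had a higher mean at 24 h. The mean log2 level of the 6 markers per array ranged from 5.58 to 6.30 at 24 h, against 6.53 to 7.33 at 20 min. At 24 h against 6 h the mean change of the 6 markers was -0.73, -0.81 and -1.06. Again 5 of 6 were lower in 3 of 3 pigs (15.7% of all probe sets) and 1 was higher in 3 of 3 (18.3%). In that comparison HIF1A Ssc.390.2.S1_at and the second VLDLR set were also lower. The part of these markers in the HIF1A, VEGFA, ADM and VLDLR values was not tested.

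ADM differed little between pigs at 6 h and widely at 24 h. Its probe set read 6.67, 6.79 and 7.27 at 20 min, 6.48, 6.82 and 6.74 at 2 h, 6.77, 6.87 and 7.01 at 6 h, and 6.996, 7.32 and 6.46 at 24 h in pigs 1, 2 and 3. The SD between pigs was 0.12 at 6 h and 0.43 at 24 h. Pig 3 went against the others: its 24 h value was 0.81 below its 20 min value, while pigs 1 and 2 were 0.33 and 0.53 above theirs. The mean change was 0.02 ± 0.72 (SD, n = 3; limma adjusted p = 0.980). Without pig 3 it was 0.43, with an unadjusted limma p of 0.00374 and an adjusted p = 0.675, and without only the 20 min array of pig 3 it was 0.24.

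SLC2A1 did not change in the same direction in all pigs at any time against 20 min. Its values were 6.07, 6.04 and 6.22 at 20 min, 6.58, 6.02 and 6.04 at 2 h, 6.34, 5.73 and 6.21 at 6 h, and 6.14, 6.21 and 6.03 at 24 h. Pig 1 was highest at 2 h and 6 h, and pig 2 was lowest at 20 min, 2 h and 6 h but highest at 24 h. The time means lay between 6.10 and 6.21, and the SD between pigs reached 0.32. The change at 24 h against 20 min was 0.02 ± 0.18 (SD, n = 3; limma adjusted p = 0.974). The time means ordered 6 h, 20 min, 24 h, 2 h from low to high. Neighbours were at most 0.0851 apart, below the standard error of a paired change in the model, 0.145.

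TXNIP had 1 probe set, brighter than all but 0.458% of those tested. It read 13.06, 13.51 and 13.50 at 20 min, 13.19, 13.51 and 13.28 at 2 h, 13.09, 13.41 and 13.23 at 6 h, and 13.26, 13.49 and 13.16 at 24 h in pigs 1, 2 and 3. Pig 2 was highest at all 4 times, and pig 1 was lowest at the first 3. The pigs disagreed at 24 h against 20 min, with changes of 0.20, -0.02 and -0.34 in pigs 1, 2 and 3, a mean of -0.05 ± 0.27 (limma adjusted p = 0.838). Its 95% interval was -0.26 to 0.16. At 6 h against 2 h the level was lower in 3 of 3 pigs by a mean of -0.09 ± 0.03 (adjusted p = 1.00), where 9.64% of all probe sets were lower in 3 of 3.

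VLDLR was lower at 24 h than at 20 min in 3 of 3 pigs on both of its probe sets, and neither passed. The brightest, Ssc.8564.1.A1_at, read 11.30, 11.49 and 11.78 at 20 min, 11.31, 11.40 and 11.58 at 2 h, 11.41, 11.27 and 11.62 at 6 h, and 11.10, 11.18 and 11.75 at 24 h in pigs 1, 2 and 3. Pig 3 was highest throughout, and the times overlapped. The change at 24 h was -0.18 ± 0.14 (SD, n = 3; limma adjusted p = 0.464).

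The second VLDLR set, Ssc.4552.1.S1_at, had the lowest change of the 13 sets. It read 7.85, 7.90 and 8.45 at 20 min, 7.95, 6.87 and 8.27 at 2 h, 7.98, 7.99 and 8.21 at 6 h, and 7.25, 7.63 and 7.77 at 24 h. The 24 h values lay below all values of 20 min and of 6 h; 4.72% of all probe sets had non-overlapping lower values at 24 h against 20 min. The change against 20 min was -0.61, -0.27 and -0.67, a mean of -0.52 ± 0.21, or 0.698-fold, with a 95% interval from -1.0003 to -0.04. Its limma p was 0.0369 unadjusted and 0.357 adjusted. Against 6 h the change was -0.51 ± 0.20 (adjusted p = 0.617). The difference between the changes of the 2 VLDLR sets at 24 h, -0.34 ± 0.34, gave p = 0.50 in the exact sign-flip permutation test.

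A control of RNA quality moved with some of these values and not with others. For the EF1A control transcript, the 3′ probe set minus the 5′ probe set, a gap that grows as RNA is degraded, changed by 0.38, -0.01 and 0.47 at 24 h against 20 min in pigs 1, 2 and 3, and pig 2 was also the pig with the smallest decrease of the second VLDLR set and of HIF1A Ssc.390.2.S1_at. The 2 h array of pig 2, the lowest of the 12 in both of these sets, had the highest EF1A difference, 1.11, against 0.23 to 0.86 on the other arrays. In the brightest VLDLR set pig 2 had the largest decrease at 24 h (-0.20, -0.30 and -0.03 in pigs 1, 2 and 3). In the brightest HIF1A set it had the smallest (-0.11, -0.06 and -0.27). On the 2 h array of pig 2 neither brightest set was at its lowest: VLDLR read 11.40 and HIF1A 8.24. At 24 h against 20 min the actin control changed by 0.09, -0.23 and -0.04 and the GAPDH control by 0.06, 0.01 and 0.04. Pig 2 had the lowest change in both, as in EF1A, but neither rose in pigs 1 and 3 as far as EF1A did. On the 2 h array of pig 2 the actin difference was 2.54, also the highest of the 12. The GAPDH difference on that array was -0.182, below those of the 24 h arrays of pigs 1 and 3 (-0.171 and -0.157). The part of RNA quality in these results was not tested.

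**Figure D3:**
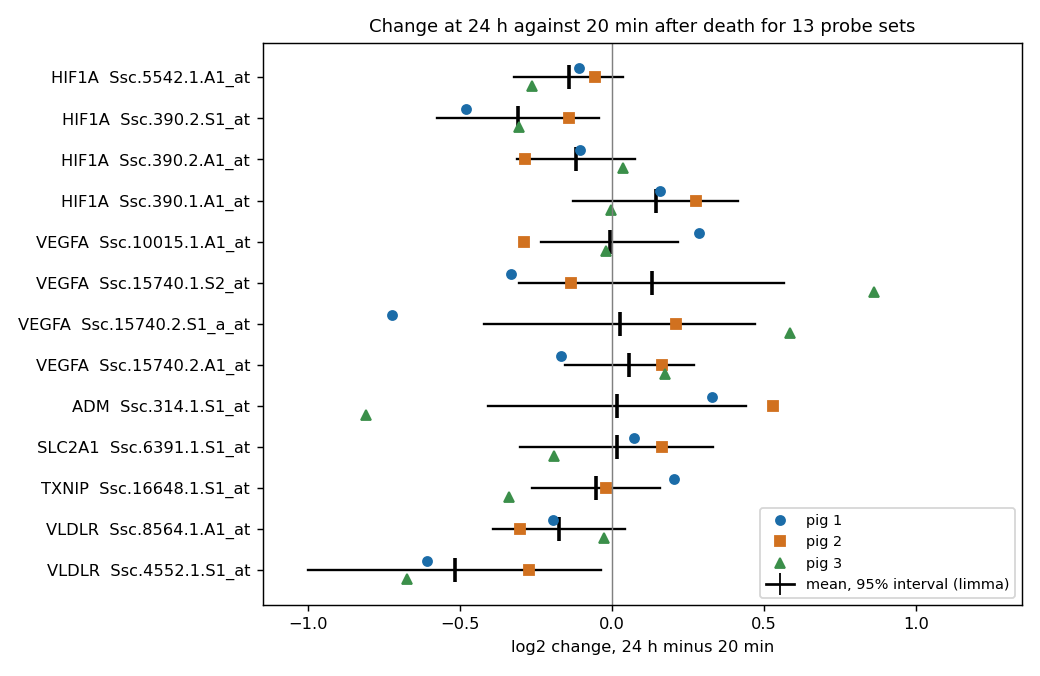
Log2 change at 24 h minus 20 min (x axis) for the 13 probe sets (y axis), with a symbol for each pig and the limma mean with its 95% interval as a line. The intervals of HIF1A Ssc.390.2.S1_at and VLDLR Ssc.4552.1.S1_at lie below 0; the pigs spread to both sides of 0 in VEGFA Ssc.15740.1.S2_at (-0.33 to 0.86) and ADM (-0.81 to 0.53).

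The counts over the 13 probe sets were read against those of the whole array. At 24 h against 20 min, 2 of 13 were lower at an unadjusted p under 0.05, where 6.67% of all probe sets were, and 0 of 13 were higher, where 6.41% were; the adjusted test called 0.00417%. That count of 2 was 0 without the pig block, 0 when the 20 min array of pig 2 or the 24 h array of pig 1 was left out, and 1 when the 20 min array of pig 1 or of pig 3 was. Lower in 3 of 3 pigs were 4 of 13, against 16.7% of all probe sets. At 2 h and at 6 h against 20 min, 0 of 13 had an unadjusted p under 0.05, against 7.95% and 8.83%, and the adjusted test called 0% in both. The median change of the 13 sets was -0.03, -0.01 and -0.01 at 2 h, 6 h and 24 h, and that of all probe sets was -0.00017, -0.01 and 0.01. These comparisons share the 20 min arrays. For 6 h against 2 h, 1 of 13 was higher at an unadjusted p under 0.05 (0.758% of all), and for 24 h against 6 h 2 of 13 were lower (3.8% of all), which are also the 2 of 13 whose groups did not overlap downwards (3.99% of all). At an unadjusted p under 0.05 these 2 were 0 without the pig block, and 1 without the 6 h array of pig 1 or of pig 2 or the 24 h array of pig 1. The 1 set higher at 6 h than at 2 h was not called without the 2 h array of pig 2.

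Pig took a larger share of the sum of squares than time in 10 of 13 probe sets, with a median share of 52.1% for pig and 13.7% for time. Over all probe sets these medians were 31.8% and 21.0%. In a moderated F test of the pig terms, added after the values had been seen, 7 of 13 differed between pigs at an adjusted p under 0.05, where 19.9% of all probe sets did. They were 3 of the 4 HIF1A sets, the wide pair of VEGFA sets, TXNIP and the brightest VLDLR set. Without the dimmest 40% of probe sets, 5 of 9 differed, where 33.2% of all those tested did. With 1 probe set per gene it was 3 of 6, against 31.6%. The pig means over 4 times were 8.47 ± 0.07, 8.18 ± 0.05 and 8.33 ± 0.12 for the brightest HIF1A set in pigs 1, 2 and 3 (SD over 4 times; limma adjusted p = 0.0329). For TXNIP they were 13.15 ± 0.09, 13.48 ± 0.05 and 13.29 ± 0.15 (adjusted p = 0.0390).

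The order of the pigs was not shared by all genes, nor by all sets of HIF1A, where pig 3 was highest at all 4 times in Ssc.390.2.A1_at. Pig 1 was highest in the brightest HIF1A set and in VEGFA Ssc.15740.1.S2_at at all 4 times, pig 2 in TXNIP, and pig 3 in both VLDLR sets. For the brightest VLDLR set the pig means were 11.28 ± 0.13, 11.33 ± 0.14 and 11.68 ± 0.10 (adjusted p = 0.0112), and for VEGFA Ssc.15740.1.S2_at 11.001 ± 0.19, 10.31 ± 0.13 and 10.43 ± 0.41 (adjusted p = 0.0268). The 4 portions of a pig come from a single muscle, and any technical grouping of arrays by pig cannot be told apart from the pig. These calls depended on single arrays. The TXNIP call was lost in 9 of 12 fits that each left out 1 array (highest adjusted p = 0.102), and with cyclic loess (adjusted p = 0.0509). That of the brightest HIF1A set was lost in 8 of 12 (highest 0.108), those of the VEGFA pair in 4 of 12 each and that of HIF1A Ssc.390.2.A1_at in 1 of 12. HIF1A Ssc.390.2.S1_at and the brightest VLDLR set kept theirs in all 12. They lost them without all 6 h arrays (HIF1A) and without all 24 h arrays (VLDLR). TXNIP, the brightest HIF1A set and Ssc.390.2.A1_at lost theirs in 4 of 4 fits that each left out all arrays of a time. The count of 7 was 4 without the 20 min array of pig 1 or of pig 2, where 18.4% and 15.9% of all probe sets were called. It was 3 without the 6 h array of pig 1 or of pig 2 (14.5% and 15% of all), and 4 without the 24 h array of pig 2 (15.4% of all). It was 1 without all 6 h arrays, where 9.29% of all probe sets were called.

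**Figure D4:**
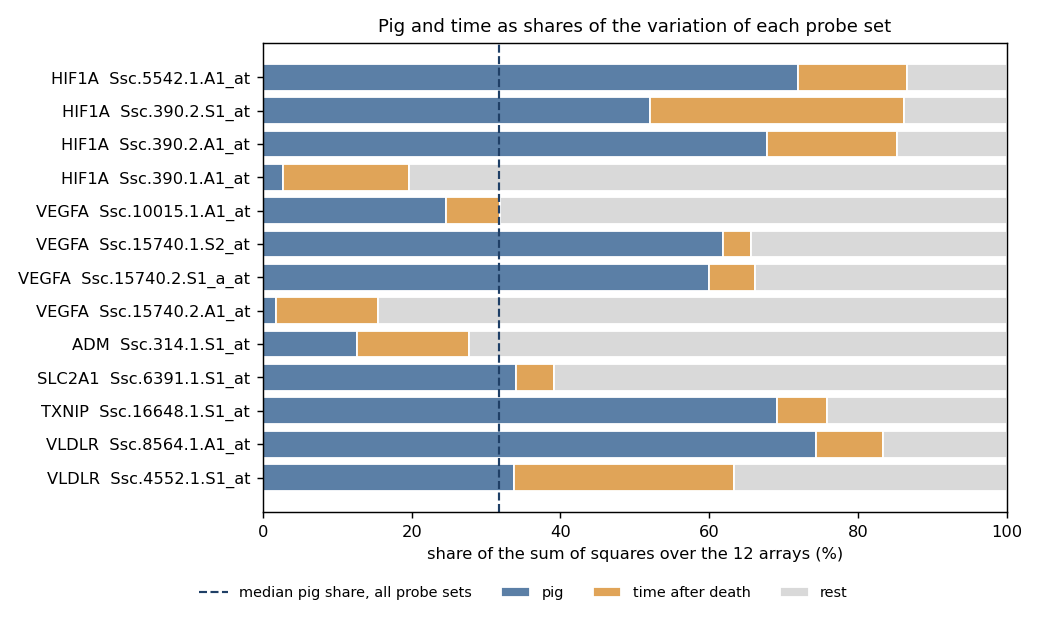
Share of the sum of squares over the 12 arrays (x axis, %) taken by pig, by time after death and by the rest, for each of the 13 probe sets (y axis). The dashed line marks the median pig share of all probe sets, 31.8%; 9 of the 13 probe sets lie beyond it, with the brightest VLDLR set at 74.3% and the brightest HIF1A set at 71.9%.

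Other genes of the pathways were read from lists, each gene by its brightest probe set. Over all probe sets 0 genes of these 7 lists passed in any comparison with 20 min. Of 17 regulators of HIF, 8 were measured, HIF1A included, and at 24 h 5 had a higher and 3 a lower mean, with a median change of 0.02 against 0.01 for all probe sets. CUL2, a scaffold of the ubiquitin ligase that holds VHL, had a log2 change of -0.15 ± 0.10 (SD over 3 pigs), ARNT2, a relative of the HIF partner, 0.06 ± 0.05, and ARNT itself 0.03 ± 0.14. At an unadjusted p under 0.05, 0 of the 8 were called at 2 h, 6 h or 24 h.

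Of 23 HIF targets outside glycolysis, 15 were measured, and 10 had a lower mean at 24 h (median change -0.06). At an unadjusted p under 0.05, 4 of 15 were lower, where 6.67% of all probe sets were, and 0 higher; without pig 3, or without its 20 min array, 2 of 15 were lower. ANKRD37, a small ankyrin repeat protein induced by hypoxia, had a log2 change of -0.59 ± 0.57 at 2 h, -0.76 ± 0.94 at 6 h and -0.65 ± 0.54 at 24 h, below 20 min in 3 of 3 pigs each time (limma adjusted p = 0.612, 0.498 and 0.310). P4HA2, a subunit of the collagen prolyl hydroxylase, had -0.26 ± 0.16 and the vessel-constricting peptide gene EDN1 -0.41 ± 0.43 at 24 h. EDN1 was dim, with a mean of 4.45 over the 12 arrays, where the median over all probe sets was 5.92, so its change is less certain. The collagen cross-linking enzyme gene LOX had -0.21 ± 0.15 at 6 h and 0.03 ± 0.08 at 24 h. The fourth gene with an unadjusted p under 0.05 at 24 h beside ANKRD37, P4HA2 and EDN1 was CA9, a carbonic anhydrase gene, at -0.19 ± 0.07; it was named after its value had been seen.

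Among the glycolytic targets, 12 of 17 were measured and 10 had a lower mean at 24 h, with a median change of -0.09 and 1 lower at an unadjusted p under 0.05, where 6.67% of all probe sets were. That gene was the aldolase gene ALDOC at -0.40 ± 0.44; the triose phosphate isomerase gene TPI1 had -0.11 ± 0.14, PFKFB4, which sets the level of a glycolytic activator, -0.06 ± 0.11, and the lactate exporter gene SLC16A3 0.14 ± 0.31. The mean of the list was -0.04, -0.01 and -0.21 in pigs 1, 2 and 3, and without pig 3 0 of 12 were lower at an unadjusted p under 0.05.

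Partners of the single genes were measured in smaller numbers. Of 10 VEGF ligands and receptors 4 were measured, and VEGFB, a ligand related to VEGFA, had a log2 change of 0.35 ± 0.45 at 24 h, higher in 2 of 3 pigs. The receptor genes KDR and FLT1 had -0.03 ± 0.16 and -0.02 ± 0.18, and NRP2 had 0.03 ± 0.16. In the list drawn up for adrenomedullin receptors and related genes, RAMP1, RAMP2 and RAMP3 had 0.11 ± 0.08, 0.15 ± 0.26 and 0.16 ± 0.23 at 24 h. CALCRL, the receptor they join, had -0.17 ± 0.37. In that list of 5, with 4 measured, all 4 had a positive mean change at 2 h, and 3 were higher in 3 of 3 pigs, in a comparison where 13.8% of all probe sets were higher in 3 of 3.

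Of 20 partners of TXNIP in redox control and glucose sensing, 14 were measured, 8 with a higher and 6 with a lower mean at 24 h (median change 0.02). The peroxiredoxin genes PRDX1, PRDX2 and PRDX3, which remove peroxides, had log2 changes of 0.16 ± 0.14, 0.26 ± 0.21 and 0.17 ± 0.04 at 2 h and of -0.08 ± 0.09, 0.26 ± 0.30 and 0.12 ± 0.02 at 24 h. SLC2A4, the insulin-regulated glucose transporter gene of muscle, had 0.26 ± 0.05 at 6 h and 0.07 ± 0.15 at 24 h. At an unadjusted p under 0.05, 2, 2 and 1 of the 14 were higher at 2 h, 6 h and 24 h, where 4.01%, 4.29% and 6.41% of all probe sets were, and 0 lower.

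Of 17 members of the lipoprotein receptor family and partners of VLDLR, 8 were measured. The lipase gene LPL, which releases fatty acids from the particles VLDLR binds, was 0.52 ± 0.28 at 2 h, 0.45 ± 0.07 at 6 h and 0.43 ± 0.38 at 24 h above 20 min, higher in 3 of 3 pigs each time (limma adjusted p = 0.579, 0.488 and 0.260). APOE, a ligand of these receptors that macrophages also make, had -0.62 ± 0.83 at 24 h. MYLIP, a ligase that marks VLDLR for degradation, had -0.12 ± 0.54 and LRP6 -0.13 ± 0.04.

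**Figure D5:**
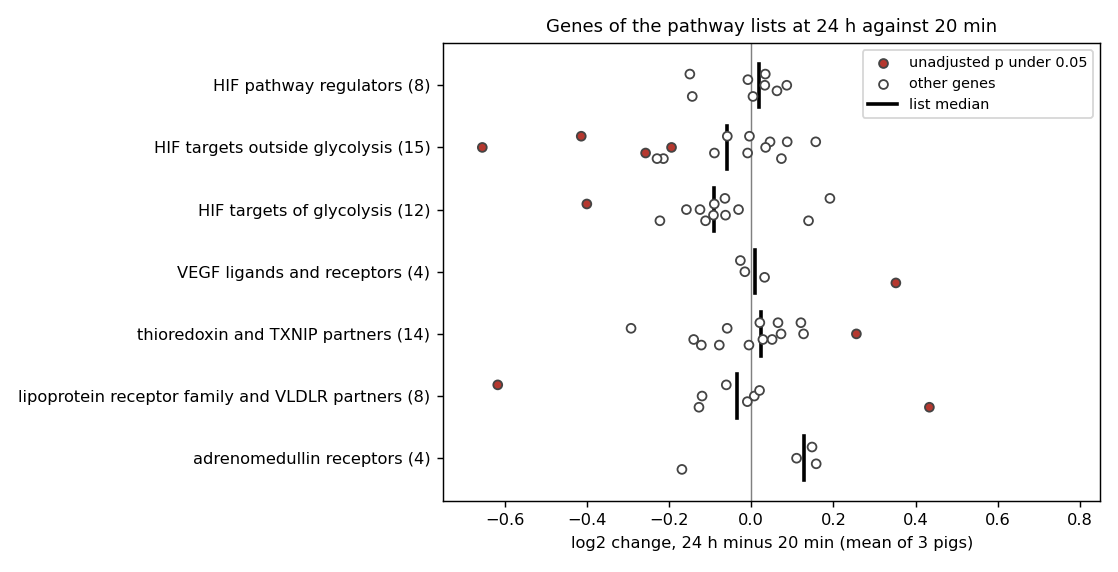
Log2 change at 24 h minus 20 min (x axis) of each measured gene of 7 pathway lists (y axis, with the number measured), as the mean of 3 pigs. Filled points have an unadjusted p under 0.05 and bars mark list medians, which lie between -0.09 and 0.13; LPL (0.43) and ANKRD37 (-0.65) are the outermost points.

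Likeness to the brightest probe set of each gene was read from the correlation over the 12 arrays after taking out pig means. The candidates were 4898 genes with a mean at or above the median of all probe sets. It is given as a description, since the arrays share 3 pigs and the highest values were picked from all candidates. It holds for that probe set only. Its r with the other sets of the gene was -0.594 to -0.151 for VEGFA, 0.129 to 0.258 for HIF1A and 0.197 for VLDLR. The nearest to HIF1A were PRPF38B, KLF4 and LOXL1 (r = 0.897, 0.892 and 0.892), to VEGFA NGDN, RAB10 and THUMPD1 (0.968, 0.915 and 0.903) and to ADM WIPF1, SAT1 and PLEKHJ1 (0.905, 0.903 and 0.899). For SLC2A1 they were IFT52, INO80E and CRYL1 (0.858, 0.811 and 0.791), for TXNIP PAN3, RAB13 and FBXL4 (0.923, 0.904 and 0.898) and for VLDLR ANAPC1, N4BP1 and HSD17B12 (0.927, 0.906 and 0.886). None of the 6 genes was among the 3 nearest of another.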

How the data were processed

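RNA from 12 muscle portions was hybridised to Affymetrix porcine arrays. The deposited log2 values were made by the authors: the submitters' processing notes name RMA and affy, with no version; RMA corrects background, normalises by quantiles and summarises probes on the log2 scale. No genome build was used here. The platform annotation dates from 2016: 10099 probe sets had 1 gene symbol, 198 had several and 13826 had none. Of the 6 genes, 5 matched the RefSeq table by gene ID, SLC2A1 not.

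The linear model was fitted with limma 3.58.1 in R 4.3.3 to 23999 probe sets (124 control probe sets left out), with time and pig as terms, and p-values were adjusted by Benjamini-Hochberg over all of them at 0.05. The code was tested on simulated data. Pig numbers come from the labels and mark the same animal: deviations from the time means correlated between arrays of the same pig with r from 0.409 to 0.656 (18 pairs). The p-values between times rest on how far the changes over time differ among the 3 pigs, as 1 residual spread over all arrays fitted. The test between pigs uses the same residual spread, left after pig and time are taken out. The number of pigs limits the precision, and no array depth applies. The members and gene lists were chosen with earlier results of these data known. All member probe sets are described. Of each list up to 4 genes with the smallest F test p are named, and for the brightest probe set of each gene the 3 genes most alike. The test between pigs was added after the data were seen. Alternatives were the block, normalisation, prior, array weights, a filter on dim probe sets, other probe sets and leaving out arrays or pigs.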

Additional observations from a re-analysis of the deposited data

How the results depend on the processing

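In the alternatives run for the counts between times, 0 of the probe sets tested passed the adjusted test; these were 13, but 9 without the dimmest 40% and 6 with 1 probe set per gene. Single log2 changes were followed for 27 of the combinations of probe set and comparison; over their 628 alternatives none passed, with a lowest adjusted p = 0.178, and 59 alternatives reversed a direction, while 11 changes were reversed by none. Without the replicate block, that is without pairing by pig, 0 of 13 had an unadjusted p under 0.05 at 24 h against 20 min, where the blocked fit had 2, and the adjusted p of the brightest HIF1A set at 24 h was 0.855, against 0.470 with the block. With pig as a random block that count was also 0, and with cyclic loess 1. The F test count of 1 at an unadjusted p under 0.05 ranged from 0 to 2 when pigs or arrays were left out. Another probe set of the gene reversed the brightest HIF1A set at 2 h (0.10), 6 h (0.18 and 0.13) and 24 h (0.14), and VEGFA at 2 h (0.18, 0.12 and 0.014), 6 h (0.19, 0.25 and 0.082) and 24 h (0.13, 0.024 and 0.055). Cyclic loess reversed VEGFA (0.013) and SLC2A1 (-0.017) at 24 h, and array weights ADM at 6 h (0.018) and SLC2A1 at 24 h (-0.033). Leaving out single arrays or pigs moved the brightest VEGFA set between -0.16 and 0.050 at 2 h, -0.20 and 0.029 at 6 h, and -0.16 and 0.13 at 24 h. The range was -0.17 to 0.20 at 6 h and -0.24 to 0.43 at 24 h for ADM, and -0.10 to 0.24, -0.16 to 0.14 and -0.13 to 0.12 at 2 h, 6 h and 24 h for SLC2A1. It was -0.12 to 0.076 at 2 h and -0.18 to 0.090 at 24 h for TXNIP, and at 24 h -0.24 to 0.36, -0.27 to 0.40 and -0.030 to 0.17 for VEGFA Ssc.15740.1.S2_at, Ssc.15740.2.S1_a_at and Ssc.15740.2.A1_at. The count of 7 probe sets that differed between pigs was 3 of 6 with 1 probe set per gene (31.6% of all called) and 5 of 9 without the dimmest 40% (33.2%). It was 6 with cyclic loess (20%) and 6 with the trended prior (21.7%), which lost VEGFA Ssc.15740.1.S2_at. Without single arrays the count was 3 to 7. It was 4, 4, 1 and 2 without all arrays of 20 min, 2 h, 6 h and 24 h, where fewer arrays were fitted and 14.2%, 14%, 9.29% and 12.1% of all probe sets were called. The cause of the other changes was not tested. Probe sets in the dimmest 40% of the array, 4 of the 13, are the least certain.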
